A study of Mus musculus with 6 samples.

Results

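The measurements concern 10 genes that mark endothelial cells, the cells lining blood vessels, in a sorted cell fraction of the mouse anterior pituitary. The genes are Pecam1, Cdh5, Kdr, Flt1, Tek, Tie1, Plvap, Esam, Emcn and Eng. They were found by their symbol in the gene name column of the arrays' scanner output, which has 30175 distinct entries. The 10 genes had 14 of the 39429 probes on the array, each of 60 bases. Kdr and Plvap had 2 probes each, Flt1 had 3, and the other 7 genes had 1 probe.

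The fraction was the side population, cells that pump out a Hoechst dye, without the cells of highest Sca1 staining. It came from female mice that all carried iDTR, an inducible receptor for diphtheria toxin, and all were given toxin 2 times a day, in doses of 4 ng for each g of body weight. GHCre/iDTR mice also carried a Cre driven by growth hormone regulatory sequence, so that the receptor can be made in growth hormone cells, whereas -/iDTR controls carried the receptor gene alone. The 6 arrays fall into 4 groups: GHCre after 3 days of toxin (2 arrays), control after 3 days (2 arrays), GHCre after 10 days (1 array) and control after 10 days (1 array). The labels give no age or strain, and do not say how many mice went into a sort or that the 2 arrays of a group came from separate mice, so the p-values below measure the spread between these arrays alone. Sorts gave 25000 to 50000 cells, from anterior lobes dissociated with trypsin after removal of the neurointermediate lobe, and 1 ng of RNA was amplified for each array.

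Endothelial cells hold together through adhesion molecules at their junctions, and read vessel growth signals through VEGF receptors and through the angiopoietin receptor. Pituitary capillaries are fenestrated: their wall has small pores spanned by diaphragms, and hormones enter the blood through it. Many mouse endothelial cells carry Sca1 on their surface, so the gate that left out the cells of highest Sca1 bears on which endothelial cells could remain. RNA of a cell type in such a sort depends on the number of its cells and on the RNA in each, which cannot be told apart here.

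Each level below is the log2 of a probe's background-corrected signal over the 75th percentile of all probes on its array, so that 0 is the signal of a probe at that percentile and -1 is a signal lower by 1 log2 unit. Levels of different probes are not set against each other, because probes differ in how well they bind. A probe is called above background where the scanner software marked its spots so (for a probe with several spots, 50% or more of them), and a probe was tested if it passed on 2 or more arrays. The share of all probes above background ran from 53.8% to 65.7% over the arrays, and levels on different arrays correlated with Pearson's r of 0.848 to 0.903 across tested probes, which are not independent replicates. Gh, the transcript of the targeted cells, stood at 5.46 and 2.20 on the GHCre arrays of 3 days, against 5.69 and 3.65 on the control arrays of 3 days, and at 2.21 on the GHCre array of 10 days, against 7.86 on the control array of 10 days. The Gh levels of the 3-day groups overlapped. Prl was between 10.35 and 11.08 on all arrays. Of the pituitary stem cell markers, Sox2 was above background on no array and Sox9 was above background on all 6. Ly6a, which encodes Sca1, was above background on all 6 arrays, at -0.47 and -2.53 in GHCre after 3 days, -1.72 and -2.25 in control after 3 days, -2.78 in GHCre after 10 days and -3.48 in control after 10 days. Abcg2, a pump behind the side population's dye efflux, was above background on all 6 arrays, between -0.26 and 0.80. The free-text descriptions of some samples disagree with their titles. The titles, which match the genotype and treatment fields, were used.

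Of the 14 probes, 6 were above background on all 6 arrays, 1 on 5, 1 on 3, 4 on 1 array, and 2 on none. The probes of Eng, Emcn and Pecam1, both probes of Plvap and 1 probe of Kdr were detected everywhere. Cdh5 was missing on 1 control array. Esam was above background on both GHCre arrays of 3 days and on the control array of 10 days. Flt1, Tek and Tie1, which encode receptors for VEGF and for angiopoietins and a relative of the latter receptor, had no probe above background on more than 1 array. Part of the gene set only was thus detected. Pecam1, Emcn, Eng, Plvap and 1 probe of Kdr gave signal on every array, and Cdh5 on 5 of 6. Esam gave signal on 3 arrays, the Flt1 probes on 1, 1 and 0, and the Tek and Tie1 probes on 1 and none. Signal at a probe does not show which cell type it came from.

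**Figure D1:**
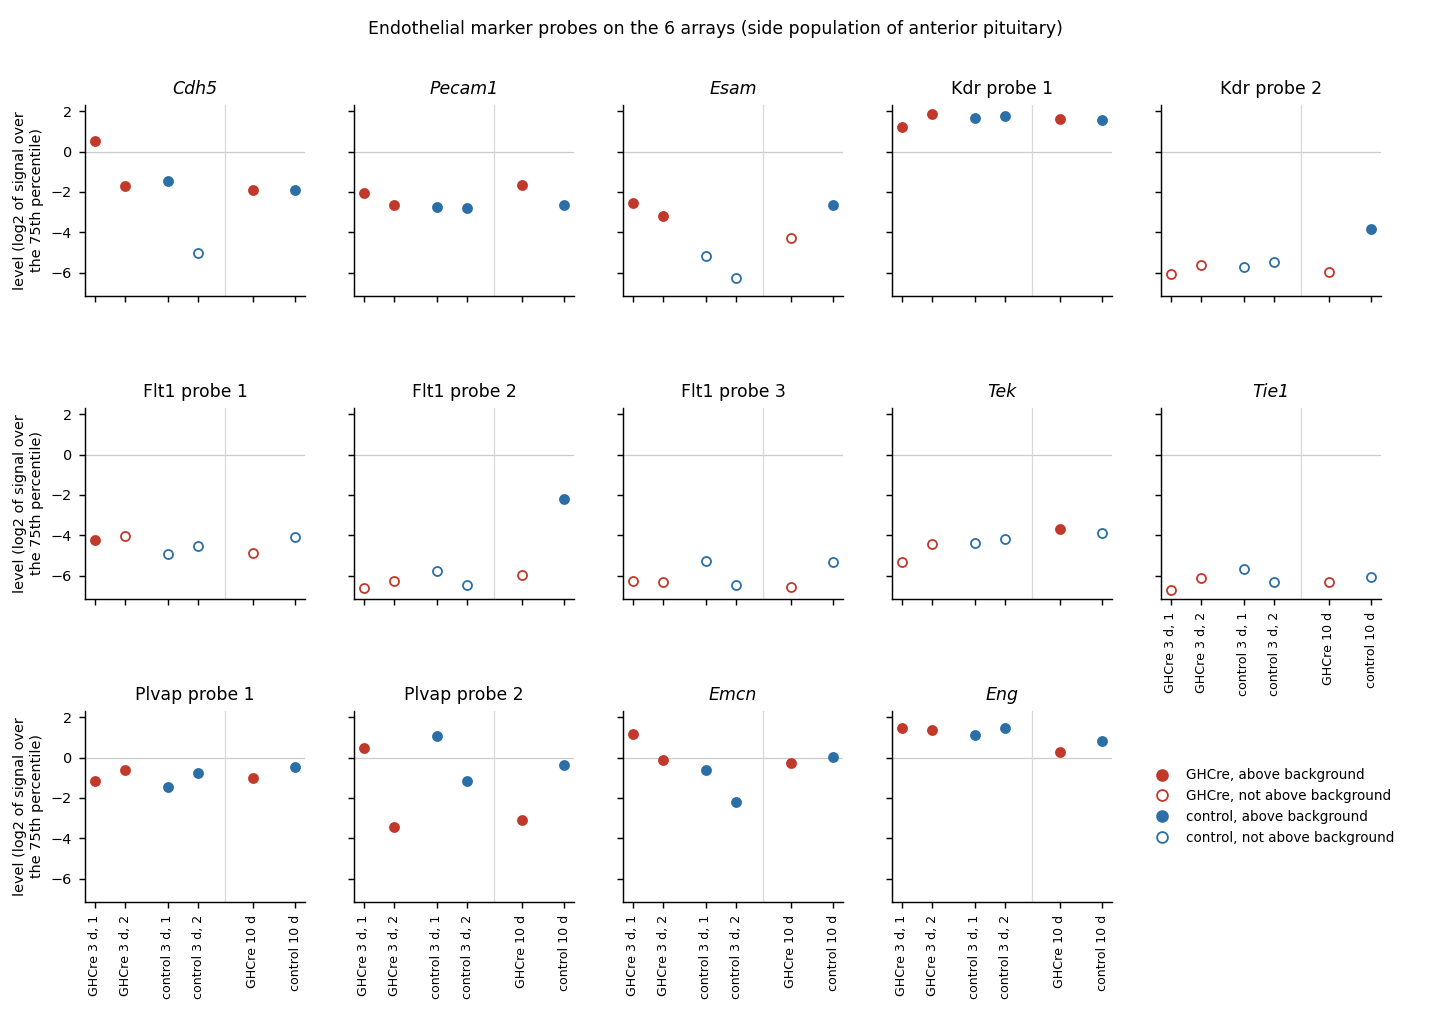
Levels of the 14 probes (vertical axis, log2 of signal over the array's 75th percentile) on the 6 arrays (horizontal axis: GHCre and control after 3 days, then GHCre and control after 10 days), 1 point for each array. Red marks GHCre and blue marks control, filled points are above background and open points are not. Emcn was lowest on the second control array of 3 days, at -2.20, where Cdh5 and Esam were not above background. Kdr probe 1 lay between 1.23 and 1.87, and Eng ran from 0.29 to 1.47.

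Probes for 3 of the receptors are shown because their readings decide whether the receptor counts as present. Tek, the angiopoietin receptor, and Tie1, its relative with no angiopoietin of its own, were read by probes that lie on chromosome 4 in the mm9 assembly, at chr4:94540624-94540683 on the plus strand and chr4:118144132-118144191 on the minus strand. They are given 5′ to 3′ with the bases they share at the best ungapped alignment in capitals.
Tek: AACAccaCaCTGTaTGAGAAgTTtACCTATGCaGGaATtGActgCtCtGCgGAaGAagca
Tie1: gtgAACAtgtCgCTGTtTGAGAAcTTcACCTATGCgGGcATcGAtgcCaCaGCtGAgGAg
Of the 57 aligned bases 39 were the same (68.4%), and the longest shared run was 8 bases. The 2 Kdr probes lie on chromosome 5 on the minus strand, at chr5:76330395-76330454 for probe 1 and chr5:76329309-76329368 for probe 2, which is 1086 bases further along the same transcript. Their first 30 bases are shown because the same gene gave a signal above background at one and not at the other on 5 of the 6 arrays.
Kdr probe 1: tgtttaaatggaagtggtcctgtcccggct
Kdr probe 2: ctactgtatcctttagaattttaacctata
Probe 1 has 55% G and C bases over its full length and probe 2 has 35%. The files give positions on mm9 and on the transcript, and exon and UTR annotation of that build was not used here.

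The first question was whether the endothelial markers differed between GHCre and control mice after 3 days of toxin. No probe of the array passed an adjusted p of 0.05 in limma's moderated test with Benjamini-Hochberg adjustment (0% of 27254 probes tested), and 1818 had an unadjusted p under 0.05 (6.67%). The lowest adjusted p was 0.638. Of the 8 tested probes of the markers, 1 had an unadjusted p under 0.05, that of Esam. The 3-day arrays with the same replicate number shared a slide, and with slide as a block 3 of the 8 had an unadjusted p under 0.05, those of Esam, Cdh5 and Emcn, against 6.91% of all tested probes, each with an adjusted p of 0.700 in limma. On 3 of the 8, those of Esam, Emcn and Pecam1, both GHCre arrays lay above both control arrays, as did 17.1% of all tested probes. None of the 8 had both GHCre arrays below both controls, against 20.5% of all tested probes. These counts describe the probes that passed the filter. Esam passed it only through its 2 GHCre arrays of 3 days beside the control array of 10 days. Neither control array of 3 days was above background for it. Its place in these counts thus depends on the difference they describe, so it gives that difference no support. Cdh5 passed with 1 control array of 3 days not above background.

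Cdh5 encodes VE-cadherin, the main adhesion molecule of endothelial junctions. Its level was 0.51 and -1.71 in GHCre after 3 days, against -1.46 and -5.00 in control after 3 days, where the lower value was not above background. The groups overlapped, since the lower GHCre array lay below the higher control array. The difference was 2.63 ± 1.53 (log2, SE, n = 2 each) with an adjusted p of 0.856 in limma. It was 1.97 between the arrays on slide 1 and 3.29 between those on slide 3. Without the second control array it was 0.86, and without the first control array it was 4.41. On the arrays of 10 days Cdh5 stood at -1.91 in GHCre and -1.88 in control, a difference of -0.03, which was 0.084 with quantile normalization.

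Emcn encodes endomucin, a sialomucin on the surface of venous and capillary endothelium. It was above background on all 6 arrays. Its level was 1.17 and -0.15 in GHCre after 3 days, against -0.62 and -2.20 in control after 3 days. The groups did not overlap, and their means differed 3.78-fold, by 1.92 ± 0.84 (log2, SE, n = 2 each), with an adjusted p of 0.796 in limma. The difference was 1.13 without the second control array and 2.71 without the first. Slide 1 gave 1.78 and slide 3 gave 2.05. After 10 days the level was -0.28 in GHCre and 0.01 in control, a difference of -0.29 from 1 array each.

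Esam encodes an adhesion molecule of endothelial tight junctions and platelets. Its level was -2.57 and -3.17 in GHCre after 3 days, against -5.17 and -6.28 in control after 3 days, where neither array was above background. The GHCre mean of -2.87 ± 0.43 (SD, n = 2) thus has only a rough ratio to the control mean of -5.72 ± 0.78 (SD, n = 2), of 2.04-fold. For this ratio each array's lowest signal among probes above background stands in for a dim probe below it. Some probes not above background lay higher than this stand-in, such as Tek on the control array of 10 days, at -3.89 against -3.94. The ratio is therefore not a minimum. The fitted difference of 2.85 ± 0.61 (log2, SE) had an adjusted p of 0.677 in limma. It was 0.26 where the background was corrected with normexp, a method that pulls dim signals together, before scaling to the 75th percentile.

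Esam turned the other way on the arrays of 10 days, where GHCre stood at -4.27, not above background, and control at -2.67. The GHCre array was 3.03-fold lower with the same stand-in, which lay at the GHCre level itself, -4.27. This ratio is not a minimum either. The GHCre effect of 10 days minus that of 3 days was fitted as -4.46 ± 1.06 (log2, SE) with an adjusted p of 1.00 in limma, but 3 of the 6 arrays behind it were not above background, so its size is not measured. No probe of the array passed in this comparison (0%). An unadjusted p under 0.05 was found for 4.14% of all tested probes and for Esam alone among the 8 probes. Esam entered this comparison only through its GHCre arrays of 3 days and the control array of 10 days. Those arrays set the direction of the difference, so its place in this count gives the difference no support. Of 9 probes for platelet markers, 4 were above background on all 6 arrays, those of Itga2b and Treml1 and 2 of Gp1bb. Gp5, Gp9 and Ppbp were above background on none, and Pf4 on the first GHCre array of 3 days alone.

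Pecam1 encodes CD31, a junctional adhesion molecule shared by endothelium, platelets and leukocytes. Its level was -2.04 and -2.67 in GHCre after 3 days, against -2.76 and -2.82 in control after 3 days. The groups did not overlap, but the second GHCre array lay next to the control arrays. The difference was 0.44 ± 0.47 (log2, SE, n = 2 each) with an adjusted p of 0.905 in limma, 0.72 on slide 1 and 0.15 on slide 3. After 10 days Pecam1 stood at -1.67 in GHCre and -2.62 in control, which made the difference of 0.95 the highest of the 8 probes at that time. Ptprc, the leukocyte surface protein CD45, was above background on all 6 arrays, so leukocytes as a source of Pecam1 RNA cannot be told apart from endothelium here.

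Kdr encodes VEGF receptor 2, the main receptor through which VEGF acts on endothelial cells. Probe 1 was at 1.23 and 1.87 in GHCre after 3 days, against 1.64 and 1.77 in control after 3 days. The control levels lay between the GHCre levels. The difference was -0.16 ± 0.48 (log2, SE, n = 2 each) with an adjusted p of 0.963 in limma, and the 10-day levels of 1.63 in GHCre and 1.57 in control differed by 0.06. On slide 1 the 3-day difference was -0.41 and on slide 3 it was 0.10, opposite in sign.

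Kdr probe 2 was printed in 10 spots on each array. It averaged -6.06 and -5.64 in GHCre after 3 days, -5.73 and -5.47 in control after 3 days, and -5.95 in GHCre after 10 days, and was above background on none of these arrays. On the control array of 10 days it averaged -3.81 and was above background. The 10 spots there ran from -4.09 to -3.05, with a median of -3.74, while the highest spot of any other array was -4.23. Probe 1 did not share this difference, with a lower level on that array than on the GHCre array of 10 days.

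**Figure D2:**
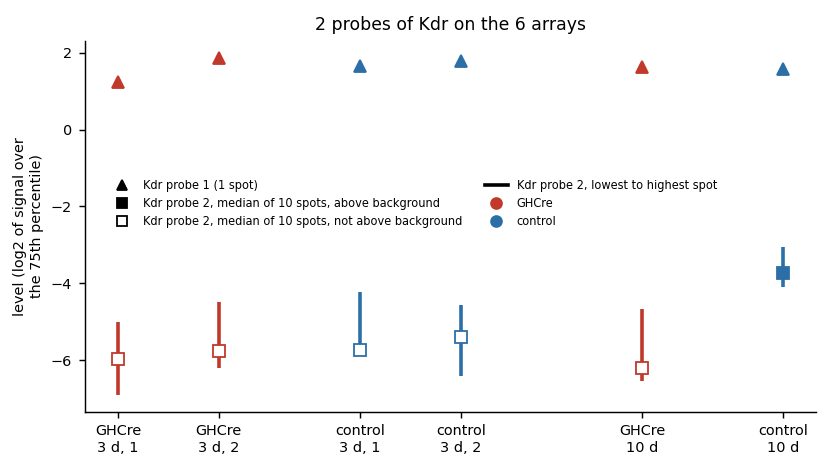
Levels of the 2 Kdr probes (vertical axis, log2 of signal over the array's 75th percentile) on the 6 arrays (horizontal axis), with GHCre in red and control in blue. Triangles are probe 1, squares are the median of the 10 spots of probe 2, filled where above background, and bars run from the lowest to the highest spot. Probe 1 lay between 1.23 and 1.87 on all arrays, while the spots of probe 2 on the control array of 10 days ran from -4.09 to -3.05.

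Flt1 encodes VEGF receptor 1, which binds VEGF tightly and signals weakly. Its 3 probes lie on chromosome 5 and are annotated to 3 different transcripts, at chr5:148465976-148466035, chr5:148373791-148373850 and chr5:148446872-148446931, all on the minus strand. Probe 1 was above background on the first GHCre array of 3 days alone, at -4.22, and ran from -4.94 to -4.03 on the others. Probe 2 was above background on the control array of 10 days alone, at -2.19, against -5.97 on the GHCre array of 10 days. With the stand-in used for Esam the GHCre array was 4.22-fold lower, which is not a minimum. Its 3-day levels were -6.60 and -6.28 in GHCre and -5.77 and -6.47 in control. Probe 3 was above background on no array. None of the 3 could be tested.

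Tek was above background on the GHCre array of 10 days alone, at -3.69. On the control array of 10 days it was -3.89, and after 3 days it was -5.30 and -4.45 in GHCre and -4.39 and -4.20 in control. Tie1 was above background on no array, with levels from -6.71 to -5.67. Neither receptor can be ordered between the groups, since the values below background have no order.

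Plvap encodes the protein that builds the diaphragms of fenestrated capillaries. Its 2 probes, on chromosome 8 at chr8:74030739-74030798 and chr8:74021877-74021936 on the minus strand, are 431 bases apart on the transcript, and both were above background on all 6 arrays. Probe 1 stood at -1.15 and -0.64 in GHCre after 3 days, against -1.45 and -0.77 in control after 3 days, overlapping groups with a difference of 0.22 ± 0.51 (log2, SE, n = 2 each) and an adjusted p of 0.953 in limma. Probe 2 stood at 0.49 and -3.45 in GHCre after 3 days, against 1.08 and -1.16 in control after 3 days. The first array of each group was the higher, and the difference of -1.44 ± 1.65 (log2, SE) was opposite in sign to that of probe 1, with an adjusted p of 0.909 in limma. After 10 days probe 1 was -1.02 in GHCre and -0.45 in control, and probe 2 was -3.10 in GHCre and -0.38 in control. Both 10-day differences were negative, -0.57 and -2.73. Over the 6 arrays, which share their scaling, the probes had a Pearson correlation of -0.49.

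Eng encodes endoglin, a co-receptor for ligands of the TGF-beta family on endothelial and some stromal cells. Its level was 1.46 and 1.36 in GHCre after 3 days, against 1.09 and 1.47 in control after 3 days. The groups overlapped, with a difference of 0.13 ± 0.44 (log2, SE, n = 2 each) and an adjusted p of 0.966 in limma. After 10 days it was 0.29 in GHCre and 0.83 in control, below every 3-day array. With 10 days of toxin set against 3 days, the fitted difference was -1.12 ± 0.54 (log2, SE) in GHCre and -0.45 ± 0.54 in control, both with an adjusted p of 1.00 in limma.

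The median difference over the brightest probes of the 7 tested genes was 0.44 (log2) after 3 days, beside -0.03 over all tested probes, and 6 of the 7 were positive, as were 13221 of the 27254 tested probes. Esam is among the 7 only through its GHCre arrays of 3 days. Plvap counts as positive by its probe 1, while probe 2 differed by -1.44 and the mean of both probes by -0.61. Over the 5 genes above background on all 6 arrays the 3-day median was 0.22, which is the value of Plvap probe 1. After 10 days the median was -0.29, beside -0.00 over all tested probes, and 2 of the 7 were positive. With 1 array in each group of 10 days, there is no replicate check on a 10-day difference. No tested probe of the array passed the adjusted p after 10 days (0%), in a fit that takes the spread for the single arrays from the 3-day groups. A difference of at least 2-fold after 10 days was found upward for 13.6% and downward for 15.2% of all tested probes. Among the 8 probes it was found for none upward and for Esam and Plvap probe 2 downward.

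**Figure D3:**
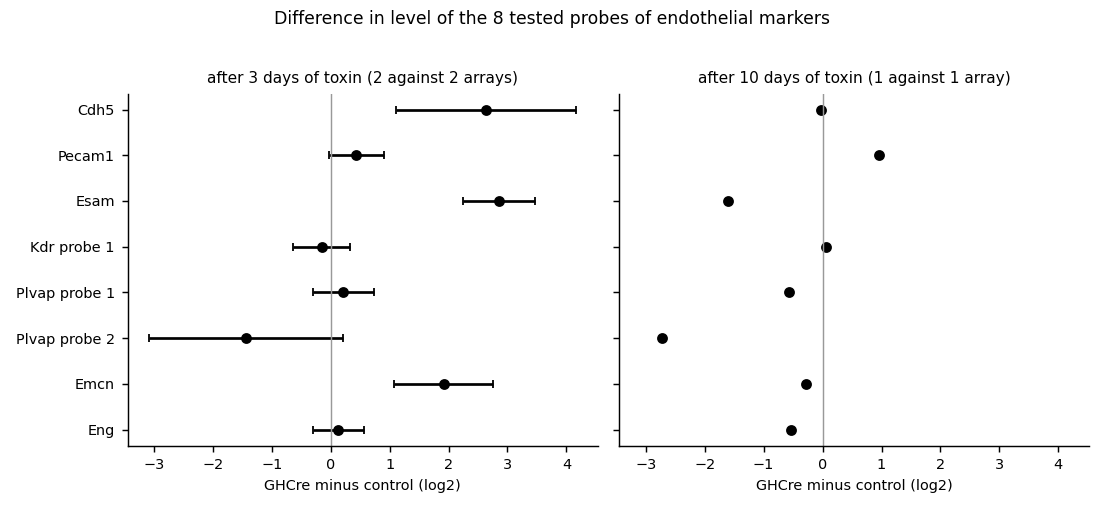
Difference in level, GHCre minus control (horizontal axis, log2), for the 8 tested probes (vertical axis), after 3 days on the left and after 10 days on the right. Bars on the left are the standard error of the limma fit with 2 arrays in each group, and the points on the right rest on 1 array in each group and have no bar. The 3-day points of Esam, Cdh5 and Emcn lie at 2.85, 2.63 and 1.92, the first with no control array and the second with 1 control array above background, so their order is not measured. None of them was above 0 after 10 days, where Cdh5 stood at -0.03 here and at 0.084 with quantile normalization.

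The order of the 4 groups differed from gene to gene. Cdh5 and Emcn had their lowest group mean in control after 3 days, and Emcn on the control array of 10 days lay between the 2 GHCre arrays of 3 days, with the GHCre array of 10 days just below the lower of them. For Eng the 10-day arrays were the lowest, with the GHCre array below the control array. Kdr probe 1 gave no order beyond the spread of its GHCre arrays of 3 days. Between pairs of tested probes over the 6 arrays, Pearson correlations were 0.96 for Cdh5 and Emcn, with Cdh5 not above background on 1 array, and -0.70 for Kdr probe 1 and Emcn. These describe 6 points that share array and scaling, and they carry no test. The mean profile of the 7 genes, each centred on its own mean, was 0.79 and 0.26 on the GHCre arrays of 3 days, against -0.26 and -0.99 on the control arrays of 3 days. It was -0.05 on the GHCre array of 10 days and 0.24 on the control array of 10 days. Values of Esam on 3 arrays and of Cdh5 on 1 were not above background. With the 5 genes that were above background on every array, a choice made after seeing the data, the profile was 0.33 and 0.15 on the GHCre arrays of 3 days, against -0.22 and -0.31 on the control arrays of 3 days, and -0.01 on the GHCre array of 10 days, against 0.06 on the control array of 10 days.

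The 5 genes whose level was most like the profile of the 7 genes, among 15162 probes of named genes above background on all 6 arrays, were Hspa2 (r = 0.998), Gbp6 (0.996), Furin (0.994), Serinc3 (0.993) and Ctdsp2 (0.990). Gbp6 is a guanylate-binding protein of the interferon-induced family and Furin is a protease that cleaves proproteins. With 6 arrays, 292 of the 15162 probes had an r of at least 0.9. Against the profile of the 5 genes above background on every array, the r of the named genes was between 0.92 and 0.97. Those 5 genes are part of the 7, and the 2 profiles correlated at 0.96, so this is no separate check. Gbp6 ran from 1.90 on the first GHCre array of 3 days down to -2.41 on the second control array of 3 days. Hspa2 spanned far less, from 1.78 to 1.20 on the same arrays.

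Ligands and co-receptors of the VEGF and angiopoietin pathways came next. Of 12 such genes on the array, 9 were tested and none passed the adjusted p after 3 days. Vegfa, the main VEGF, gave 2 probes that were above background on all arrays. The probe of higher signal had 4.61 and 4.33 in GHCre after 3 days, against 4.65 and 3.80 in control, and differed by 0.25 ± 0.52 (log2, SE). The other Vegfa probe had 2.61 and 1.65 in GHCre, against 0.48 and 0.60 in control, and differed by 1.59 ± 0.54. Vegfc, a ligand that acts on lymphatic vessels, was at 0.69 and 0.15 in GHCre after 3 days, against -0.12 and -1.66 in control, and at -0.66 in GHCre after 10 days against -2.14 in control. Pgf, placental growth factor, overlapped between the groups with a difference of 1.46 ± 0.99.

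Angpt1, the agonist of the angiopoietin receptor, had 2.92 and 3.08 in GHCre after 3 days, against 3.19 and 4.09 in control, a difference of -0.65 ± 0.53 (log2, SE). Angpt2, the ligand that opposes Angpt1 in many settings, differed by 1.20 ± 0.87 with overlapping groups. Angpt4, and Ptprb, the endothelial phosphatase that acts on the angiopoietin receptor, were above background on no array. Of the co-receptors, Nrp1 differed by 0.75 ± 0.45. The brighter of 2 Nrp2 probes differed by -1.82 ± 0.63, with 0.24 and 1.18 in GHCre against 3.00 and 2.06 in control, and the other Nrp2 probe differed by -0.23 ± 0.74. Vegfb and Vegfd differed by -0.27 ± 0.57 and 0.19 ± 0.84, with Vegfd not above background on 1 GHCre array. None of these had an adjusted p under 0.638 in limma. Flt4, VEGF receptor 3, was above background on the control array of 10 days alone, at -1.97, against -4.47 on the GHCre array of 10 days.

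Over the VEGF list and 3 further endothelial lists together (other markers, transcription factors, and adhesion molecules of inflamed vessels), 58 genes were tested by their brightest probe. After 3 days, 39 had a positive difference, against 13221 of the 27254 tested probes. Both GHCre arrays lay above both controls for 18 and below them for 6, against 17.1% and 20.5% of all tested probes. None passed the adjusted p, and an unadjusted p under 0.05 was found for 4 upward and 2 downward, against 6.67% of all tested probes in either direction. Upward these were Cd34, Foxf1, Icam1 and Vcam1. Cd34, a sialomucin of vessels and progenitors, had 0.94 and 1.39 in GHCre against -1.05 and -1.57 in control, a difference of 2.48 ± 0.48 (log2, SE, adjusted p 0.677 in limma). A second Cd34 probe did not share it, with overlapping groups and a difference of -0.21 ± 1.37. Downward they were the Nrp2 probe given above and Notch4, a Notch receptor of endothelium, with -6.58 and -5.98 in GHCre, neither above background, against -3.29 and -2.40 in control. Only the second control array was above background for Notch4, so the size of its difference is not measured.

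Among further markers, Icam2 differed by 3.31 ± 1.31 (log2, SE) and Cd93 by 2.71 ± 1.20 after 3 days, each with 1 control array not above background. Cldn5, a claudin of endothelial tight junctions, was above background on the second GHCre array of 3 days, at -3.36, and on both arrays of 10 days, at -3.53 in GHCre and -3.57 in control. Vwf, von Willebrand factor, had 1 probe with a difference of -0.01 ± 0.53 and another with -1.36 ± 0.73, not above background on 1 GHCre array. On the list of endothelial transcription factors, Sox17 was above background on no array, 1 Erg probe was above background on 2 arrays, and Fli1 was above background on all 6 with a difference of 0.28 ± 0.43. The cell type behind these signals cannot be told apart here.

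The control array of 10 days had the highest share above background for 3 of the 5 endothelial lists, the 10 markers, the other markers and the VEGF list. For the transcription factors it was level with the first GHCre array of 3 days, at 76.9%, and for the adhesion molecules of inflamed vessels it was 57.1%, against 71.4% on 4 other arrays. Of the 14 probes of the 10 markers it had 71.4% above background, against 57.1% on the GHCre array of 10 days. On the arrays of 3 days the share was 64.3% and 57.1% in GHCre, against 50% and 42.9% in control. Of the probes on the 5 endothelial lists, 7 were above background on the control array of 10 days and on no other (6.54%), 1 each of Kdr, Flt1, Flt4, Nos3, Podxl, Robo4 and Cyyr1. Over all probes of the array that share was 1.11% for this array and between 0.791% and 2.11% for the others. No other array had more than 1 such endothelial probe.

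**Figure D4:**
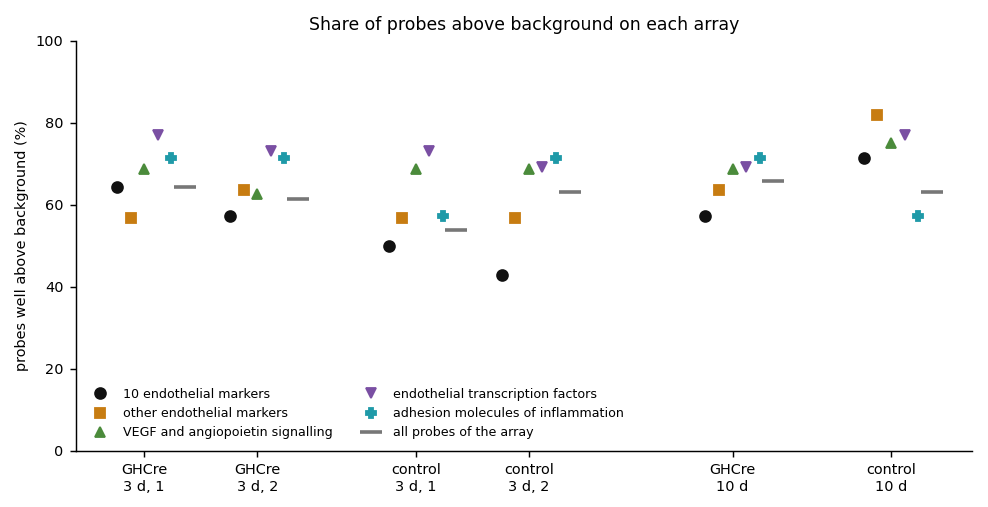
Share of probes above background in percent (vertical axis) on the 6 arrays (horizontal axis) for the 10 endothelial markers, 4 further endothelial lists and all probes of the array. The 10 markers ran from 42.9% on the second control array of 3 days to 71.4% on the control array of 10 days, while all probes ran from 53.8% to 65.7%.

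Markers of other cells moved on the same arrays. On the control array of 10 days the mean centred level of 8 hormone cell genes was 2.19, against -1.22 on the GHCre array of 10 days. Their median difference between these arrays was -3.78 (log2), and the part of this in the 10-day endothelial values was not tested. This array was also alone on its slide, so slide and group cannot be told apart for it. After 3 days 14 of 15 mural cell and fibroblast markers had a positive difference, with a median of 0.68, and all 15 were above background on at least 2 arrays. Des, an intermediate filament protein of mural and muscle cells, had 0.09 and 0.44 in GHCre against -2.16 and -1.40 in control. Pdgfrb and Rgs5, which mark pericytes, differed by 0.42 ± 0.47 and 0.31 ± 0.87. The mean centred level of the 15 genes was 0.70 and 0.07 in GHCre after 3 days, against -0.23 and -0.53 in control. Its correlation over the 6 arrays with the profile of the 10 markers' tested genes was 0.93. For the further endothelial lists this correlation was lower: 0.68 for other markers, 0.84 for VEGF, 0.87 for transcription factors and 0.82 for adhesion molecules. For the remaining cell lists it ran from -0.52 for platelet markers to 0.68 for red cell markers. The profile was thus not particular to endothelial genes. For macrophage and myeloid markers 5 of 11 genes were positive after 3 days with a median of -0.16. C1qc, a complement subunit, had 0.32 and -3.03 in GHCre against -5.78 and -6.37 in control, the control values not above background. Of that list C1qa, Aif1 and Mrc1 were above background on no array. The part of either list in the endothelial values was not tested.

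**Figure D5:**
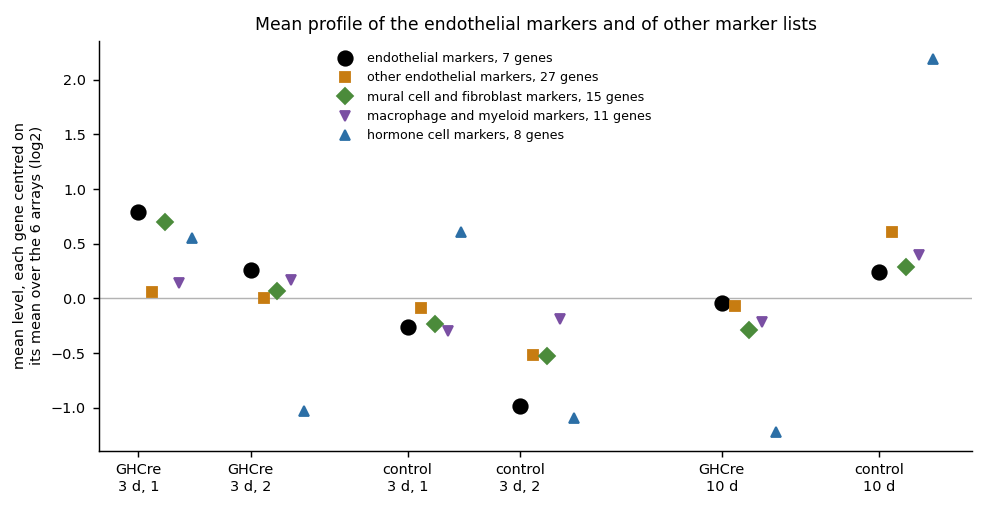
Mean level of each marker list on the 6 arrays (vertical axis, log2, each gene centred on its own mean over the arrays; horizontal axis, arrays), 1 point for each list and array. The endothelial markers were highest on the first GHCre array of 3 days, at 0.79, and lowest on the second control array of 3 days, at -0.99, and the hormone cell markers were highest on the control array of 10 days, at 2.19.

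Promoter sequence from RefSeq, 300 bases around the transcript start in the GRCm38.p6 assembly, was at hand for 6 of the 10 genes: Emcn, Eng, Flt1, Kdr, Tek and Tie1. Transcription factors of the ETS family are known to act at many endothelial promoters. The letters AGGAAG, which hold the shorter core GGAA of the family's sites, were searched on both strands. They occurred 2 times each in the promoters of Emcn, Eng, Flt1 and Tie1 and not in those of Kdr and Tek, and in 35.4% of 32851 promoters. The core GGAA alone, counted after seeing the data, occurred in all 6 windows, 6 times in that of Emcn and 5 times in that of Kdr, and in 31532 of the 32851 promoters. Emcn, which did not overlap between the 3-day groups, and Kdr, which stayed level at probe 1, are printed 5′ to 3′ with the matches to AGGAAG in capitals. They lie at chr3:137340828-137341127 on the plus strand and chr5:75978406-75978705 on the minus strand.
Emcn: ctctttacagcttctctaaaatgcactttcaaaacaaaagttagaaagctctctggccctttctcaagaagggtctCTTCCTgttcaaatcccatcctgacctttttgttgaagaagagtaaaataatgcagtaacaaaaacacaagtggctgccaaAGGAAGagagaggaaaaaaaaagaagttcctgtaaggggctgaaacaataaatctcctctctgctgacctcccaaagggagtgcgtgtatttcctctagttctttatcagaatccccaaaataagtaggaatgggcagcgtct
Kdr: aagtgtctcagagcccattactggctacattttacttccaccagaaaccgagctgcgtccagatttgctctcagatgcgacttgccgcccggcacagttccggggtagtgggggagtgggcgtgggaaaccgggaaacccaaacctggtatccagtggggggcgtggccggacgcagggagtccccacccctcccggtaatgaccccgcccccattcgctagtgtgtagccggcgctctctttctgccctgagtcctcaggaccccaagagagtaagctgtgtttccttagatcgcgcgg
A match is a run of letters and shows no binding, and the window without a match says nothing of the factors. Tie1, whose promoter holds 2 matches, had no signal above background on any array.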

How the data were processed

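RNA was measured on 6 one-colour Agilent mouse arrays on 3 slides. The deposited intensity is the processed signal that the authors exported with Agilent Feature Extraction 10.7.3.1, background-subtracted and not scaled between arrays, per the file headers. The deposited series table holds log2 values for 38017 probes, which correlated at 0.9999 or more with quantile-normalized scanner signal.

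Replicate spots among the 43020 that are not controls were averaged on the log2 scale without flagged spots (32 probe values had every spot flagged and kept their signal), and the log2 of the array's 75th percentile was subtracted. Arrays carry no read depth, so their number limits precision. No probe was saturated. The 27254 probes above background on at least 2 arrays entered limma 3.58.1 in R 4.3.3, with a mean for each of 4 groups, moderated statistics and Benjamini-Hochberg adjustment over all probes tested, at a threshold of 0.05. All 4 groups share 1 spread with 2 residual degrees of freedom, from the 3-day arrays. The fit was tested on simulated data with known changes, where it returned their sizes but passed no probe at the adjusted p, so the absence of calls says little. The pairing by replicate number was checked: the deviations of same-numbered 3-day arrays had a correlation of 0.0900, and these arrays shared a slide, per the file headers.

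Genes named are all probes of the 10 markers, the VEGF and angiopoietin list, genes of lowest unadjusted p after 3 days on the other lists, markers of other cells, and the 5 most similar genes. Adgrf5 and Mmrn2 were added as other markers that differed downward. The members and the lists were chosen with earlier results of these data known. Probe positions are those of mm9 in the files.

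Alternatives were quantile normalization, normexp background correction, the series table, other filters, 1 value per gene, an intensity trend, replicate and slide as blocks, values within slides, and leaving out each 3-day array.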

Additional observations from a re-analysis of the deposited data

Results flagged for a closer look

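The GHCre effect on Esam differed in direction between the times: both GHCre arrays of 3 days lay above both controls, while the GHCre array of 10 days lay below its control. The difference of effects was -4.46 (log2), with an adjusted p of 1.00 in limma. Esam was tested only through its GHCre arrays of 3 days and the control array of 10 days. Those arrays set the direction of the difference, so the test gives it no support. The size of the difference rests on 3 arrays not above background, and the effects were 0.26 after 3 days and -0.42 after 10 days with normexp and 75th percentile scaling. Emcn had the same arrangement of levels, with a difference of effects of -2.21 (log2) and an adjusted p of 1.00 in limma. The 10-day effect rests on 1 array in each group for both genes, with the control array alone on its slide.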

How the results depend on the processing

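No probe of the array passed the adjusted p in any of the 5 comparisons under any alternative that was run. The count at an unadjusted p under 0.05 for GHCre against control after 3 days ran from 1031 to 2916 over the alternatives, and the lowest adjusted p was 0.416. With the replicate block 0 probes passed after 3 days and 1884 had an unadjusted p under 0.05; the 2 pairs also share a slide, so the slide block gave the same values, and the median of the members stayed at 0.44. That median ran from 0.15 within slide 3 to 0.75 without the second GHCre array, and after 10 days the median ran from -0.54 to -0.22. Normexp with 75th percentile scaling moved the median of all tested probes after 3 days to -0.15.

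Of 240 recomputed values of single probes, 228 kept their sign and 12 did not. Leaving out 1 array in turn gave -0.48 to 0.17 for Kdr probe 1 after 3 days, -0.12 to 0.55 for Plvap probe 1 (negative without the first control array, and -0.04 without the second GHCre array), -3.41 to 0.53 for Plvap probe 2 and -0.057 to 0.32 for Eng. Within slide 3, Kdr probe 1 gave 0.10 and Eng gave -0.10. The mean of all probes of a gene gave -1.04 for Kdr after 10 days and -0.61 for Plvap after 3 days, through their second probes. Cdh5 after 10 days was 0.084 with quantile normalization, 0.023 with normexp and quantile normalization and 0.040 in the series table. Under normexp with 75th percentile scaling Esam was 0.26 after 3 days and -0.42 after 10 days, the same signs with smaller sizes. The cause of the other sign changes was not tested. Cdh5 and Esam had no value where a probe had to be above background on all arrays, and the slide block gave no value for GHCre against control after 10 days.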
